A study of Gallus gallus with 54 samples.

Results

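Breast muscle was profiled in 18 of the 54 libraries of a messenger RNA sequencing study of indigenous Ethiopian chickens (Gallus gallus), and the 18 were taken by the tissue in their titles. Of these, 9 came from birds of low altitude origin, labelled as adapted to heat (L1 to L9), and 9 from birds of high altitude origin, labelled as not adapted to heat (H1 to H9). Origin and heat phenotype changed together in the labels, so they cannot be told apart. The labels used here name no strain, age, sex, batch or treatment, and do not say whether a library came from 1 bird, so the p-values measure the spread between libraries. The question was which genes differed between the origins in breast muscle, and how far libraries of one origin differed among themselves. Heart and spleen, with 18 libraries each, served to show what was particular to the muscle.

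Chicken breast muscle is built almost wholly of fast white fibres that contract quickly and take their energy mainly from glycogen and glucose. Its messenger RNA is dominated by a small number of very abundant transcripts for contractile proteins, calcium handling and energy metabolism, many of them rare in other tissues. Heart muscle shares part of this contractile programme, while spleen, an organ of blood and immune cells, shares little of it.

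The deposited values were counts per Ensembl gene. A breast muscle library held 9305788 (H1) to 13106439 (H6) counts, averaging 11969213 ± 671013 for low altitude and 11158542 ± 1488885 for high altitude (SD, n = 9 each; exact permutation p = 0.155). The files do not pair identifiers with gene names, and 0 of 24881 identifiers matched the reference table, so defining muscle markers could not be checked by name. Genes are therefore described by abundance and by tissue. As for the tissue label, all 18 libraries correlated best with another breast muscle library, with a Spearman correlation of at least 0.949, against at most 0.829 with any heart or spleen library. Those correlations used 14176 genes scaled over all 54 libraries, while the ones that follow used 10120 genes with breast muscle scaled alone. They are therefore not like for like. Within breast muscle, 4 high altitude libraries stood apart: H1, H4, H7 and H8 had median correlations with the other breast muscle libraries of 0.839, 0.890, 0.889 and 0.867, where the other 14 had 0.918 or more. H1 and H8 also had the lowest total counts, 9305788 and 9307575, but H4 and H7 held 12077258 and 12536338. Results that rest on these 4 libraries are given with and without them. The 4 were picked in these same data, by a median correlation under 0.9. Leaving them out leaves 9 low and 5 high altitude libraries, and a smaller spread at high altitude follows in part from that choice.

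The first comparison asked how each library divided its counts between abundant and rare genes. Genes were put in abundance classes by their mean in breast muscle in CPM (counts scaled to one common library total), with both altitudes weighing equally. The 89 genes at 1000 CPM or more held 58.2% ± 5.05 of the counts in low altitude libraries and 49.8% ± 13.5 in high altitude libraries (SD, n = 9 each). The low altitude libraries ran from 49.9% (L9) over a median of 61.1% to 63.6% (L3). The high altitude libraries ran from 21.9% (H1) over a median of 55.9% to 64.4% (H6), with H8, H4 and H7 next above H1 at 39.3%, 41.4% and 49.1%. The groups overlapped, and the difference did not pass, with an exact permutation p of 0.0956 and an adjusted p of 0.213 over the 20 values per library that were compared. Without H1, H4, H7 and H8 the sign turned, to 1.18 percentage points less at low altitude, and without H1 alone the difference was 4.85 points, where it had been 8.34. The shares of one library add up to 100%, so the other classes together differed by as much in the opposite direction.

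Genes at 100 to 1000 CPM, 1106 in number, held 25.6% ± 2.73 in low altitude and 30.3% ± 6.68 in high altitude libraries (exact permutation p = 0.0672, adjusted p = 0.168, n = 9 each). Their share was 43.2% in H1 and 22.7% in H6, the extremes of the 18 libraries. Genes at 10 to 100 CPM, 4609 in number, held 14.4% ± 2.07 in low altitude and 17.7% ± 5.88 in high altitude libraries (exact permutation p = 0.129, adjusted p = 0.258, n = 9 each). Genes at 1 to 10 CPM held 1.67% ± 0.322 at low altitude, against 2.04% ± 0.921 at high altitude (exact permutation p = 0.304, n = 9 each). Genes under 1 CPM held 0.139% ± 0.0252 at low altitude, against 0.170% ± 0.0892 at high altitude (exact permutation p = 0.383, n = 9 each). In each of these 4 classes the high altitude SD was at least 2.44 times the low altitude SD. All 4 differences turned sign without H1, H4, H7 and H8, to 0.148 percentage points more at low altitude for 100 to 1000 CPM, 0.778 for 10 to 100 CPM, 0.232 for 1 to 10 CPM and 0.0234 under 1 CPM. Leaving out H1 alone took the difference at 10 to 100 CPM to -1.66 percentage points, where it had been -3.26, at 1 to 10 CPM to -0.109, where it had been -0.366, and under 1 CPM to -0.00577, where it had been -0.0309.

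The 20 most abundant genes carried much of this. They held 33.8% to 48.4% of the counts in low altitude libraries, against 10.2% to 50.2% in high altitude libraries, where H1, H8, H4 and H7 held 10.2%, 24.7%, 24.9% and 34.7%. The difference in means was 7.06 percentage points (exact permutation p = 0.152), but 3.91 without H1 and -2.31 without the 4 libraries. The most abundant gene alone took 9.86% ± 2.50 in low altitude and 11.4% ± 5.38 in high altitude libraries (exact permutation p = 0.459, n = 9 each). It ran from 5.66% to 11.98% in low altitude libraries and from 1.12% in H1 to 18.1% in H6 at high altitude. Among the 5 high altitude libraries that did not stand apart it held 9.58% to 18.1%. Without the 4 libraries its share was 4.81 percentage points less at low altitude, with an adjusted p of 0.0450 (exact permutation test). That adjustment kept the p-values of the distances described below from all 18 libraries, which were smaller than those without the 4. Whether this share passes beside distances taken without the 4 libraries was not tested, so no call is read from it. The second most abundant gene, at least 32 times lower in heart and spleen, had 27714 to 78631 CPM at low altitude, against 1059 to 62619 CPM at high altitude. Its log2 fold change, 0.74 with an SE of 0.60, did not pass (edgeR adjusted p = 0.526).

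Tissue-typical genes were then followed. A gene was called selective for a tissue where its mean there was 20 CPM or more and stood at least 32-fold above both other tissues. Genes shared by heart and breast muscle had at least 20 CPM in both, lay within 4 times of each other, and stood at least 32 times above spleen. The 92 breast muscle-selective genes held 15.6% to 27.0% of the counts in low altitude libraries, against 3.92% to 21.9% in high altitude libraries. H1, H8, H4 and H7 had the lowest shares of all 18, at 3.92%, 7.22%, 9.14% and 11.99%. The difference had an exact permutation p of 0.0197 and an adjusted p of 0.0787, and so did not pass. It passed without H3 (adjusted p = 0.0395) or without H6 (adjusted p = 0.0421) by the same exact permutation test. Without the 4 libraries it was 1.32 percentage points, where it had been 6.66.

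The 74 genes shared by heart and breast muscle held a higher share at low altitude. Their share was 4.84% (L1), 5.08% and 5.67% (L6) as lowest, median and highest at low altitude, against 3.47% (H1), 4.59% and 5.15% (H5) at high altitude. All 9 low altitude libraries were above the high altitude median, and the groups overlapped. The means were 5.20% ± 0.314 for low altitude and 4.48% ± 0.588 for high altitude (SD, n = 9 each), a difference of 0.715 percentage points with an exact permutation p of 0.00329 and an adjusted p of 0.0165. The call was lost without the 4 libraries (difference 0.346, exact permutation p adjusted to 0.187), with an 8-fold in place of the 32-fold minimum (0.470, 0.192) and with effective library sizes in place of total counts (1.06, 0.267). In bulk tissue, fewer cells of a type and less RNA per cell cannot be told apart.

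Genes typical of the other tissues were at trace levels in the muscle, and low levels there are part of how these groups were defined. The 71 heart-selective genes held 0.00554% to 0.0246% of the counts at low altitude, against 0.00369% to 0.0345% at high altitude, where hearts gave them 6.54% to 12.5%. The 308 spleen-selective genes held 0.0152% to 0.0298% at low altitude, against 0.0116% to 0.0691% at high altitude, where spleens gave them 5.82% to 8.51%. H1, with the lowest share of breast muscle-selective genes, had the highest share of spleen-selective genes, 0.0691%, and of heart-selective genes, 0.0345%. H4, H7 and H8 had 0.0239%, 0.0205% and 0.0278% of their counts in spleen-selective genes, inside the range of the low altitude libraries. These are shares of total counts, and H1 had the smallest share in the 20 most abundant genes, 10.2%. Log2 CPM after scaling for composition was also set against each gene's median over the libraries. For the 60 spleen-selective genes tested, the median difference was 0.04 in H1 and 0.90 in H2. For the 12 heart-selective genes tested, it was 0.46 in H1 and 1.19 in L9. The part of these other tissues' transcripts in the differences was not tested.

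**Figure D1:**
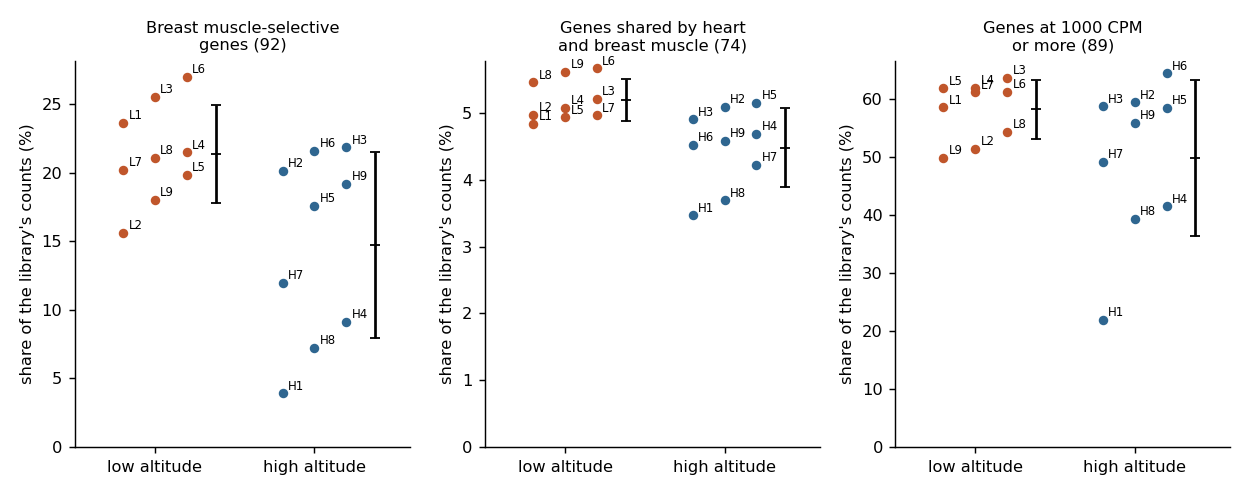
Share of each library's counts, in percent, held by 3 groups of genes in low and high altitude breast muscle; points are libraries, bars are the mean ± SD of 9. H1, H8, H4 and H7 lie under the other 14 libraries for the breast muscle-selective genes, at 3.92% to 11.99%.

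The low levels in these 4 libraries were spread over many genes of the groups, but unevenly. Each gene's level, as log2 CPM after scaling for composition, was set against its median over the 18 libraries. For the 92 breast muscle-selective genes, the median of these differences lay between -0.15 and 0.31 in low altitude libraries. In high altitude libraries it was -2.02 in H1, -1.13 in H8, -0.68 in H7 and -0.21 in H4, and between 0.00157 and 0.30 in the other 5. In H1, 69 of the 92 genes were more than 1 log2 unit under their median, and in H8, H7 and H4 54, 33 and 31 were. Of all genes tested, 14.96% lay that far under their median in H1, 14.5% in H8, 11.7% in H7 and 10.4% in H4. Of the 92 genes, 87 had their lowest library at high altitude and 71 in one of those 4, beside 6857 and 3750 of all 10120 genes tested. At the other end, 45 of the 92 had their highest library at low altitude and 47 at high altitude, beside 3255 and 6865 of all 10120 genes tested. H5 was highest for 14 of the 92 and H6 for 11, beside 1159 and 500 of all genes tested.

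Genes shared with heart gave the same picture of single libraries. Their median difference was -1.92 in H1, -1.09 in H8, -0.76 in H7 and -0.33 in H4, against -0.19 to 0.19 in low altitude libraries. For the 20 most abundant genes it was -3.33 in H1, -1.18 in H4 and -1.11 in H8. H1 was the lowest library for 19 of the 20, beside 1316 of all 10120 genes tested. Over all 10120 genes tested, a low altitude library had 378 to 1061 genes, with a median of 671, more than 1 log2 unit from their median. A high altitude library had 647 to 2971 such genes, with a median of 1818. H1 had the most, 1457 above and 1514 below. H5, which did not stand apart by its correlation, had 851 above and 967 below.

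The next comparison asked which genes differed between the origins, with edgeR's quasi-likelihood test over 9 low and 9 high altitude libraries. For each gene the fit takes a common spread for both altitudes, while the spread differed between them, as described below. Its p-values are therefore approximate. Of the 10120 genes tested, 1 gene passed a Benjamini-Hochberg adjusted p under 0.05, 0.00988% of the genes. At an unadjusted p under 0.05 there were 1838 genes, 18.2%, with 656 (6.48%) higher and 1182 (11.7%) lower at low altitude. This excess of lower genes lay in the middle classes. At 10 to 100 CPM, 297 of 4608 genes were higher (6.45%) and 694 lower (15.1%) at that p. At 100 to 1000 CPM, 48 of 1106 were higher (4.34%) and 173 lower (15.6%). At 1 to 10 CPM, where 4217 of 4468 genes passed the filter on low counts, 303 were higher and 312 lower. At 1000 CPM or more 5 of 89 were higher and 1 lower. Only 100 of the 8259 genes under 1 CPM passed the filter, and nothing is read from them.

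The fold changes of the classes were small. The median log2 fold change, low over high altitude, was -0.05 over all genes, -0.01 at 1 to 10 CPM, -0.09 at 10 to 100 CPM, -0.05 at 100 to 1000 CPM and 0.23 at 1000 CPM or more. Of the 20 most abundant genes 18 were above 0, beside 4547 of all 10120 genes tested. The median of the 20 was 0.38, and 1 had an unadjusted p under 0.05. Without H1, H4, H7 and H8 the medians were 0.11 at 1 to 10 CPM, -0.06 at 10 to 100 CPM, -0.14 at 100 to 1000 CPM, -0.05 at 1000 CPM or more and -0.05 for the 20 most abundant. In that fit 618 genes were higher and 618 lower at an unadjusted p under 0.05, and with limma-voom 1017 were higher and 819 lower, so the excess of lower genes over all classes was lost. At 1 to 10 CPM higher genes were then more numerous, with 329 higher and 118 lower without the 4 libraries, and 445 higher and 197 lower with limma-voom. At 10 to 100 CPM lower genes stayed more numerous, with 248 higher and 365 lower without the 4 libraries, and 454 higher and 478 lower with limma-voom. At 100 to 1000 CPM they did too, with 22 higher and 122 lower without the 4 libraries, and 93 higher and 142 lower with limma-voom.

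The breast muscle-selective genes and those shared with heart leaned the other way from all genes. Of the 92 breast muscle-selective genes 67 had a fold change above 0 on the log2 scale and 25 below, beside 4547 and 5573 of all 10120 genes. The quartiles of the 92 were -0.02 and 0.67 around a median of 0.36. At an unadjusted p under 0.05, 10 (10.9%) were higher and 4 (4.35%) lower, beside 6.48% and 11.7% of all genes. Of the 92, 0 passed the adjusted threshold (smallest edgeR adjusted p 0.105). At that unadjusted p limma-voom gave 23 and 3, beside 1017 and 819 of all genes. DESeq2 gave 13 and 4, beside 724 and 1284 of all genes. By abundance, 14 of the 17 at 1000 CPM or more had a positive value, beside 63 of all 89 genes of that class, and 0 had an unadjusted p under 0.05. Of the 37 at 10 to 100 CPM, 26 had a positive value, beside 1875 of all 4608. At that p 7 were higher and 2 lower, beside 297 and 694 of all 4608. Of the 38 at 100 to 1000 CPM, 27 had a positive value, beside 487 of all 1106. At that p 3 were higher and 2 lower, beside 48 and 173 of all 1106. Of the 74 genes shared with heart 57 had a positive value, with a median of 0.38, and 7 were higher and 6 lower at that p. Limma-voom gave 26 higher and 2 lower shared genes, and DESeq2 12 higher and 6 lower. Without H1, H4, H7 and H8 the median was -0.03 for the breast muscle-selective genes, with 42 of 92 above 0, and 0.000456 for the shared genes, with 37 of 74 above 0. Of all 10418 genes in that fit 5144 were above 0. Of the 71 heart-selective genes 12 passed the filter in breast muscle, and of the 308 spleen-selective genes 60 did, so no count over them is given.

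**Figure D2:**
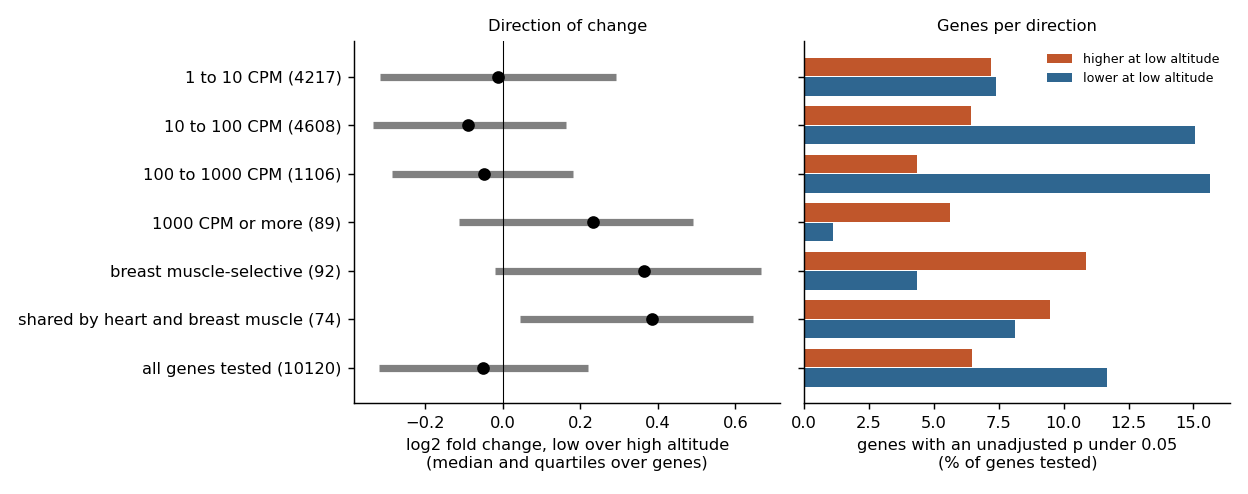
Left, median and quartiles over genes of the log2 fold change, low over high altitude, per group of genes (number tested in parentheses). Right, the percentage of genes with an unadjusted p under 0.05 that were higher or lower at low altitude; at 10 to 1000 CPM more were lower (15.1% and 15.6%) than higher.

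The gene that passed was of low abundance. ENSGALG00000042851 had 0.652, 1.87 and 3.10 CPM as lowest, median and highest value at low altitude, against 0.215, 0.494 and 0.911 CPM at high altitude. L2 was the only low altitude library within the high altitude range. The log2 fold change was 2.10 (SE 0.33, edgeR adjusted p = 0.0333). Heart had a mean of 13.2 CPM of it and spleen 0.457 CPM. The call was lost in 13 of the 18 fits without 1 library, without the 4 libraries (log2 fold change 1.81, adjusted p = 0.296), with limma-voom (2.03, 0.0768) and without a filter on low counts (2.09, 0.0998).

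The genes next in order did not pass. ENSGALG00000038520, also more abundant in heart (25.4 CPM) than in spleen (3.19 CPM), had 2.19 to 23.3 CPM at low altitude with a median of 6.11, against 0.645 to 4.84 CPM at high altitude with a median of 2.48. Its log2 fold change was 1.79 (SE 0.36, edgeR adjusted p = 0.0734). A further gene, with 28.1 CPM on average, differed by 0.80 on the log2 scale (SE 0.17, edgeR adjusted p = 0.0734). After scaling for composition, all 9 low altitude libraries were above the high altitude median for both.

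In the other direction, ENSGALG00000028037 had 2.39 to 11.7 CPM at low altitude with a median of 5.06, against 10.5 to 1111 CPM at high altitude with a median of 28.5. After scaling for composition it was the 1 gene of the 10120 whose groups did not overlap. H1, at 1111 CPM, stood alone, and H8 and H4 followed. The log2 fold change was -4.06 (SE 0.78, edgeR adjusted p = 0.0734), but -2.50 without H1 and -1.60 without the 4 libraries (adjusted p 0.0563 and 0.296). ENSGALG00000016589 had 9.85 to 21.9 CPM at low altitude with a median of 17.0, against 14.9 to 115 CPM at high altitude with a median of 40.9. H8, H7, H1 and H4 were its highest libraries. Its log2 fold change was -1.32 (SE 0.26, edgeR adjusted p = 0.0734), and -0.72 without those 4 (adjusted p = 0.296). All 4 of these genes that missed the threshold passed it with DESeq2 (adjusted p 1.96e-05 to 0.00149) and in each edgeR fit without L2, without H3 or without H6.

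The third comparison asked whether libraries of one origin spread more than those of the other. Per gene, the SD of log2 CPM between the 9 libraries had a median of 0.42 at low and 0.62 at high altitude, and 8314 of the 10120 genes (82.2%) had the larger SD at high altitude. The gap was wider for the most abundant genes, the breast muscle-selective genes and those shared with heart. The median SD at 10 to 100 CPM was 0.36 for low and 0.55 for high altitude, and at 100 to 1000 CPM 0.35 for low and 0.54 for high altitude. At 1000 CPM or more it was 0.42 for low and 0.83 for high altitude, with 83 of 89 genes more spread at high altitude. The 20 most abundant genes had 0.48 at low and 1.30 at high altitude. The breast muscle-selective genes had 0.51 at low and 1.14 at high altitude, with 84 of 92 larger at high altitude, and the genes shared with heart 0.54 at low and 1.11 at high altitude, with 66 of 74. These groups overlapped, with 17 breast muscle-selective and 12 shared genes among those at 1000 CPM or more. The 37 breast muscle-selective genes at 10 to 100 CPM had a median SD of 0.52 at low and 1.06 at high altitude.

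A limma test of each gene's absolute deviation from the median of its own altitude gave 0 genes past an adjusted p of 0.05, 0% of the genes; 1134 (11.2%) had an unadjusted p under 0.05, of which 1119 (11.1%) spread more at high and 15 (0.148%) more at low altitude. With squared deviations 13 passed. Without H9, H3, H2, H5 or H6 the number past the threshold was 294, 171, 153, 150 or 146, without H4 2 and without H8 1. Of the 89 genes at 1000 CPM or more, 28 (31.5%) spread more at high altitude at an unadjusted p under 0.05. Of the breast muscle-selective genes 27 of 92 (29.3%) did, and of the genes shared with heart 30 of 74 (40.5%). Without H1, H4, H7 and H8, 59.0% of the genes tested had the larger SD at high altitude, 155 spread more there at that p and 68 more at low altitude. The median SD of breast muscle-selective genes was then 0.51 at low and 0.58 at high altitude, and that of genes at 1000 CPM or more 0.41 at low and 0.48 at high altitude. Those 4 libraries were picked as apart in these same data, so a fall in high altitude spread without them was built in. With 9 against 5 libraries, fewer genes also reach a given p.

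**Figure D3:**
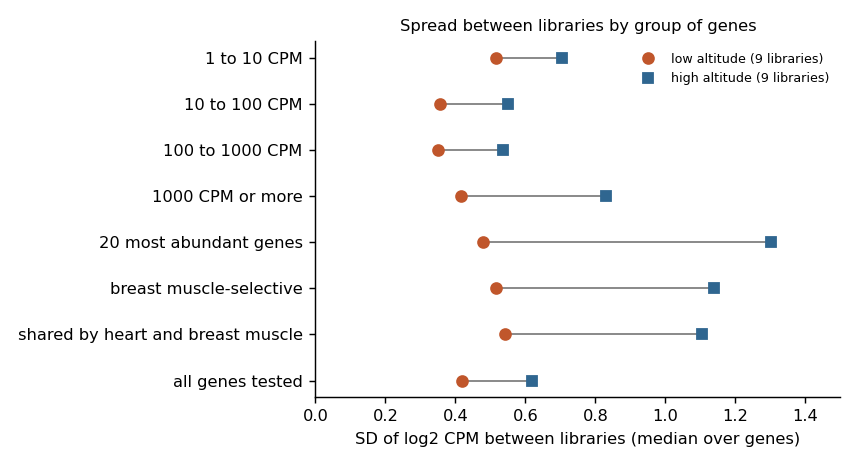
Median over genes of the SD of log2 CPM between the 9 low altitude and between the 9 high altitude breast muscle libraries, per group of genes. High altitude was higher in every group shown, by most for the 20 most abundant genes (0.48 at low and 1.30 at high altitude).

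ENSGALG00000036346 had the smallest p of the spread test. It had 50.4 to 112 CPM at low altitude with a median of 65.9, against 11.97 to 84.6 CPM at high altitude with a median of 35.3, and its heart and spleen means were 1.54 and 3.49 CPM. Its log2 CPM had an SD of 0.28 at low and 1.43 at high altitude. H1, H7, H8 and H4 lay far under the rest, H9 between them, and the other 4 high altitude libraries inside the low altitude range. The limma adjusted p was 0.141, and it was under 0.05 without H2, H3, H5, H6 or H9 and with squared deviations. Without H1, H4, H7 and H8 the difference in mean deviation was -0.08, where it had been -1.04. ENSGALG00000036553 had the smallest p in the opposite direction, with an SD of 1.33 at low and 0.60 at high altitude (limma adjusted p = 0.393). It had 0.315 to 8.33 CPM at low altitude, against 0.791 to 4.72 CPM at high altitude.

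**Figure D4:**
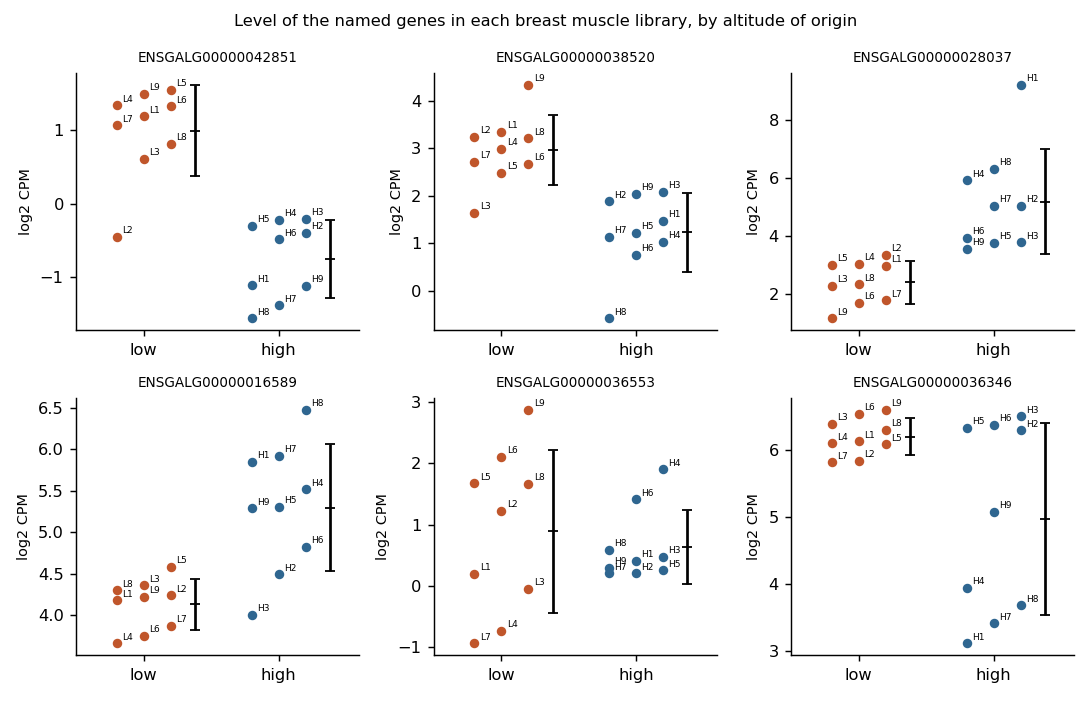
Level in log2 CPM of 6 genes in each low and high altitude breast muscle library; points are libraries, bars are the mean ± SD of 9. H1 stands alone for ENSGALG00000028037, and H1, H7, H8 and H4 lie under the other libraries for ENSGALG00000036346.

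Over whole profiles, high altitude libraries lay farther from their own group. Distance was the root mean square difference in log2 CPM, over the genes tested, from the mean of the other 8 libraries of that altitude. It ran from 0.476 (L1) over a median of 0.549 to 0.694 (L8) at low altitude. At high altitude it ran from 0.646 (H9) over 0.812 to 1.08 (H1), and only H9 lay within the low altitude range. For H2, H3, H5, H6 and H9 the mean of the other 8 included H1, H4, H7 and H8, so their distances depend partly on those. By median correlation with the other breast muscle libraries, H2, H3, H6 and H9 were at 0.928, 0.940, 0.938 and 0.936. These lay inside the low altitude range of 0.925 (L8) to 0.954 (L1), while H5 was under it at 0.918. The distances averaged 0.577 ± 0.0809 for low altitude and 0.843 ± 0.119 for high altitude (SD, n = 9 each). The difference had an exact permutation p of 0.000165 and an adjusted p of 0.00247. Distances of one group share libraries, so the test is approximate. With all libraries thinned to 9305788 counts the difference was -0.259, beside -0.266. Without H1, H4, H7 and H8 it was -0.112, with 0.487 to 0.709 for low altitude and 0.635 to 0.747 for high altitude libraries (n = 9 and 5). It then missed the threshold after adjustment (exact permutation p = 0.0190, adjusted p = 0.0983). Leaving out libraries picked as apart lowers the high altitude distances, while a mean over fewer libraries raises them, so this value is not like for like.

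The difference was larger in breast muscle than in the other tissues. In heart the distances averaged 0.634 ± 0.179 for low altitude and 0.621 ± 0.122 for high altitude (exact permutation p = 0.862), and in spleen 0.579 ± 0.109 for low altitude and 0.609 ± 0.0751 for high altitude (exact permutation p = 0.4997, n = 9 each). The labels reuse the codes across tissues without saying that a code is 1 bird. Per code, the distance in breast muscle minus that in heart was -0.0571 ± 0.190 for low altitude and 0.222 ± 0.153 for high altitude libraries (exact permutation p = 0.00165, adjusted p = 0.0110, n = 9 each). Minus spleen it was -0.00222 ± 0.0849 for low altitude and 0.233 ± 0.123 for high altitude libraries (exact permutation p = 0.000247, adjusted p = 0.00247, n = 9 each). Without the 4 codes these contrasts missed the threshold, at adjusted p of 0.244 and 0.0749 by the same exact permutation test. Over the 9511 genes tested in all 3 tissues, 82.3% had the larger SD at high altitude in breast muscle, 34.4% in heart and 50.1% in spleen. The codes that stood apart in breast muscle were also low in spleen: H4, H1, H8 and H7 had the lowest median correlations of the 9 high altitude spleens, at 0.942, 0.946, 0.947 and 0.948, where the other 5 had 0.961 to 0.972. H4 was the lowest of all 18 spleens, and L8 and L4 of low altitude were at 0.943 and 0.946. The same 4 codes had the largest distances of the high altitude spleens, 0.641 to 0.742. In heart, H1, H4 and H7 had the lowest median correlations of the high altitude libraries, at 0.917, 0.922 and 0.924, while H8 had 0.945 and L4, the lowest of all 18 hearts, 0.892. By distance H3 was the farthest high altitude heart, at 0.804, before H1, H4 and H7 at 0.778, 0.703 and 0.679, and H8 had 0.514.

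The first principal component of log2 CPM, 35.5% of the variance, set H1 (-92.3), H8 (-76.8), H7 (-64.3) and H4 (-61.8) apart from the other 14 libraries, which lay between -4.52 and 39.0. The second, 11.5% of the variance, set H5 (-49.8) and H6 (-44.7) lowest, with H1 at 27.9 and L6 at 35.7 among the highest. The SD of the first component was 14.96 at low and 52.8 at high altitude. Absolute deviations from the group median, a test chosen after these values were seen, differed with an exact permutation p of 0.00695 for it and an adjusted p of 0.0826 over 16 values per library. The biological coefficient of variation from edgeR was 35.4% over the low altitude and 52.9% over the high altitude libraries, and 39.0% over the 5 high altitude libraries left without those 4.

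**Figure D5:**
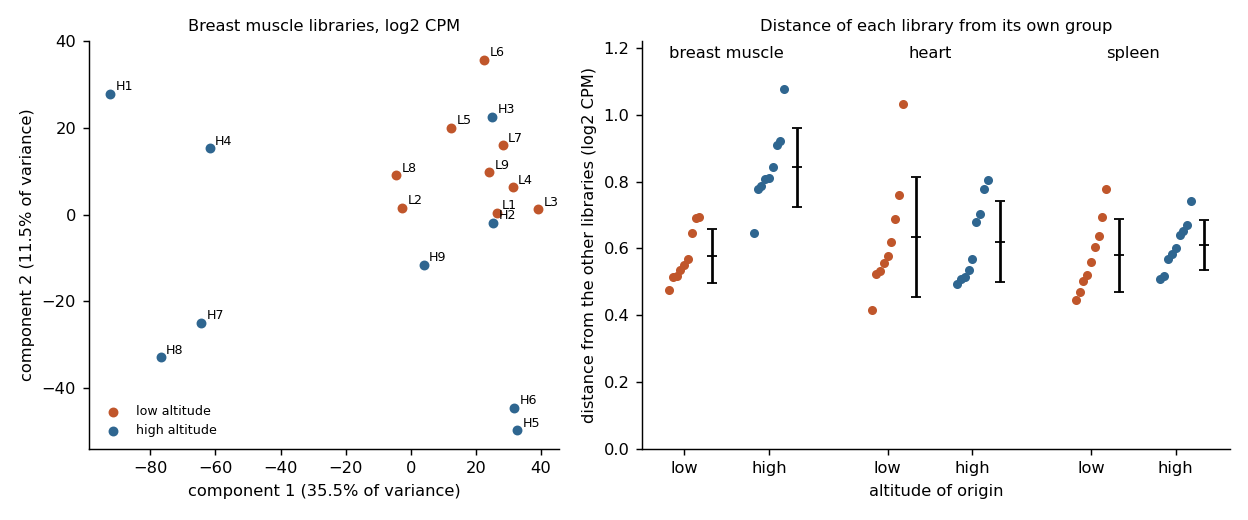
Left, scores of the 18 breast muscle libraries on principal components 1 and 2 of log2 CPM, in log2 units. Right, distance of each library from the mean of the others of its group in 3 tissues, with the mean ± SD of 9; in breast muscle it averaged 0.577 at low and 0.843 at high altitude.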

How the data were processed

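Counts per Ensembl gene were used as deposited, with whole numbers and no visible normalization. The kit was TruSeq Stranded mRNA, per the labels. The submitters' processing notes name HISAT2 2.0.4, featureCounts, FastQC, Cuffdiff, Cufflinks and the build galGal4, without role or order; whether counting used strand is not stated there, so overlapping and antisense genes and near-identical paralogs are uncertain. Each file listed 24881 identifiers, 18531 of them with a count in breast muscle, and none could be matched to the GRCg7b table.

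Breast muscle was fitted alone: edgeR 4.0.16 in R 4.3.3, TMM scaling, the default filter on low counts (10120 genes, 99.4% to 99.9% of the counts), robust quasi-likelihood test, Benjamini-Hochberg adjustment, fold change low over high altitude. Levels are log2 CPM with a prior count of 2. Spread was tested with limma 3.58.1 on absolute deviations from the altitude median. Values per library were tested with exact two-sided permutations over 48620 regroupings, adjusted over 20 values. In an alternative only the p-values of the shares, or only those of the breast muscle distance and its contrasts, were replaced. The rest of the 20 stayed those of the main test, so adjusted p-values of alternatives, with left-out libraries or sign flips too, mix settings. Fits were tested on simulated data. For the gene test and the distance test each simulated gene had the same spread at both altitudes. How these tests behave under unequal spread was not tested. Alternatives used DESeq2 1.42.0, limma-voom, other scaling, filters, depths and left-out libraries.

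Named genes were, by rule, those past the threshold, the 2 smallest p per direction at an average log2 CPM of 1 or more, and 1 per direction of the spread test; 1 of them is given without its identifier. The lists of marker genes that were fixed, for fast and slow fibres, glycolysis, oxidative phosphorylation, satellite cells, connective tissue, fat, endothelium, blood, leukocytes, stress, hypoxia and interferon, could not be tested without symbols. Groups, rules and tests were chosen with earlier results of these data known.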

Additional observations from a re-analysis of the deposited data

Results flagged for a closer look

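Values per library were checked for 1 library far from the other 8 of its altitude, in 48 sets of 9 values, each measure once per altitude. For 5 of the sets that library's gap exceeded 0.493 of the range (the limit of Dixon's test), and about 2.4 would by chance. That number is a rough guide, since the measures overlap and the named genes among them were picked by their p. In low altitude breast muscle, ENSGALG00000042851 was lowest in L2, at -0.45 log2 CPM, with the next library at 0.61. Among high altitude libraries, H8 had the lowest ENSGALG00000038520, at -0.58 log2 CPM (next 0.76). ENSGALG00000028037 was highest in H1, at 9.23 log2 CPM (next 6.32). H1 also had the highest share of counts in genes at 1 to 10 CPM, 4.10% (next 2.57%), and in spleen-selective genes, 0.0691% (next 0.0385%). Both are shares of total counts. After scaling for composition, spleen-selective genes in H1 had a median difference of 0.04 log2 units from their medians over the libraries.

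The altitude difference in distance itself differed between tissues. Low minus high altitude, the contrast of breast muscle minus heart was -0.279 and that of breast muscle minus spleen -0.235, with adjusted p of 0.0110 and 0.00247 (exact permutation tests, n = 9 each).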

How the results depend on the processing

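The number of genes past the threshold, 1 in the edgeR fit, was 1 with RLE size factors, 469 with DESeq2, 2 without H1, H4, H7 and H8, and 0 with limma-voom, without a filter, with the strict filter and with all libraries thinned to one depth. It was 455 without H3, 55 without H6, 42 without L2, 2 without H4, 1 without L3 and 0 in the other 13 fits without 1 library. Without a filter an unadjusted p under 0.05 was reached by 2765 genes, 1013 higher at low altitude. At that p limma-voom had 1017 higher and 819 lower, and the fit without the 4 libraries 618 lower. The spread test had 0 to 294 genes past the threshold without 1 library, and 13 with squared deviations; 155 genes spread more at high altitude at an unadjusted p under 0.05 without the 4 libraries, beside 1119.

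The labels do not say whether replicate numbers pair the libraries. Same-numbered libraries had correlated deviations over 0.1 in 3 of 9 pairs (-0.30 to 0.42). Differently numbered pairs were not compared, so these values do not settle it. With the number as a replicate block, 0 genes passed, 812 were higher and 725 lower at an unadjusted p under 0.05. In paired exact sign-flip tests the adjusted p was 0.0977 for the share of genes shared with heart (0.715 points), 0.0521 for the distance (-0.266) and 0.0586 for breast muscle minus heart (-0.279).

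Shares, low minus high altitude in percentage points, reversed without the 4 libraries at 1000 CPM or more (-1.18), 100 to 1000 CPM (0.148), 10 to 100 CPM (0.778), 1 to 10 CPM (0.232), under 1 CPM (0.0234) and for the 20 most abundant genes (-2.31). The share of breast muscle-selective genes differed by 5.31 to 7.55 points without 1 library. For heart-selective genes the sign changed, from -0.00127 to 0.00298. The difference for genes shared with heart was no longer past the threshold at 0.346 without the 4 libraries, 0.470 at the 8-fold minimum and 1.06 with effective library sizes. Without the 4 libraries the distance differed by -0.112, breast muscle minus heart by -0.164 and minus spleen by -0.135. For these contrasts, and in the fits without 1 library, heart and spleen distances were kept as measured with all libraries. The distances and both contrasts passed the threshold with RLE size factors, the strict filter, Spearman distances, thinned counts and in all 18 fits without 1 library. Depth limits genes under 10 CPM: ENSGALG00000042851 was under the filter once libraries were thinned.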
